A study of Homo sapiens with 18 samples.

Results

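A set of 10 genes that set the E2F1 siRNA pool apart from the E2F2 siRNA pool in LNCaP cells were followed across all 6 groups of the study: AOC1, IL1B, ABCG2, P3H2, SERPIND1, KCNK3, GIMAP6, ADRA2A, GSTA1 and VWF. They are 10 of the 58037 genes in the count table and were chosen by their large direct differences between the E2F1 and E2F2 pools, so that difference is described here without a p-value. LNCaP is an androgen-sensitive line established from a human prostate cancer metastasis. The cells were grown in charcoal-stripped serum, which removes steroids, and each library came from cells given 1 of 3 siRNA SmartPools (mixtures of siRNAs against 1 transcript) with Lipofectamine 2000: a non-targeting control pool, an E2F1 pool or an E2F2 pool. Each pool was combined with ethanol vehicle or with 0.1 nM of the synthetic androgen R1881, and RNA was taken 48 h after treatment, with 3 biological replicates in each of the 6 groups. Every group carries transfection and steroid-depleted serum, and each target was met by 1 pool, so effects of losing a target and other effects of its pool cannot be told apart.

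E2F proteins are transcription factors that bind gene promoters with a DP partner, are held in check by the retinoblastoma protein, and switch on genes for DNA replication and cell division. E2F1 and E2F2 are close relatives of the activating branch of the family. R1881 binds the androgen receptor, which in luminal prostate cells turns on secretory genes and lowers others. None of the 10 genes is a textbook replication gene: they encode a cytokine and a receptor (IL1B, ADRA2A), a transporter and a channel (ABCG2, KCNK3), enzymes (AOC1, P3H2, GSTA1), proteins of blood clotting (SERPIND1, VWF) and a small GTPase (GIMAP6).

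The libraries were made by exome capture and held 10930204 to 14819879 counts. Levels are given as CPM, each gene's counts relative to the TMM-scaled library total, and a log2 difference with its standard error (SE) comes from the edgeR model of all 18 libraries. The E2F1 transcript measured 37.3 ± 5.00 CPM (SD, n = 3) in control vehicle cells and 6.83 ± 1.69 CPM with the E2F1 pool in vehicle, and 74.4 ± 6.32 and 9.69 ± 0.876 CPM under R1881. The E2F2 transcript measured 2.29 ± 0.877 CPM in control vehicle cells and 0.121 ± 0.142 CPM with the E2F2 pool in vehicle, and 3.43 ± 1.12 and 0.195 ± 0.192 CPM under R1881. The E2F2 libraries also held less E2F1 mRNA than control, 12.6 ± 2.25 CPM in vehicle and 24.1 ± 2.29 CPM under R1881. In the E2F1 libraries E2F2 mRNA stood at 1.87 ± 0.543 CPM in vehicle, overlapping control, and at 1.45 ± 0.274 CPM under R1881, below it. The part of either in the results below was not tested. In every comparison the replicate 3 libraries deviated together (r = 0.51 to 0.90 across genes). Where each group held over 3 counts, the members whose difference from control moved by more than 1 SD between replicates without them were ABCG2 at -1.68 and VWF at -1.24 with the E2F1 pool under R1881, P3H2 at -2.39 with the E2F1 pool in vehicle, and SERPIND1 at -2.58 and GIMAP6 at 2.06 with the E2F2 pool in vehicle (log2), all in the direction found with them.

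The promoter window of RefSeq (GRCh38.p14, 250 bases before to 50 after a transcript start) was found for 9 of the 10 genes, 14 windows in all. The letters of the E2F sites TTTCCCGC and TTTGGCGC, read on both strands, stood in 1.63% and 0.652% of the 35116 windows in the table and in 0 of these 14, as did those of the androgen receptor half-site AGAACA, present in 14.8% of all windows. A TATA box (TATAAA, 11.5% of all windows) was found in GSTA1 and ADRA2A, the CHR element TTTGAA (15.2%) in IL1B and in 1 of the ABCG2 windows, and an AP-1 site (TGANTCA, 7.71%) in GIMAP6. A match is a description of letters, and no match says only that these letters are not in this window. The windows of AOC1 and GIMAP6, which are neighbours on chromosome 7, of IL1B, and of SERPIND1 and GSTA1, which moved the other way, are shown 5′ to 3′ with the matched motif in capitals, of which AOC1 and SERPIND1 hold none.
AOC1, chr7:150852267-150852566, + strand: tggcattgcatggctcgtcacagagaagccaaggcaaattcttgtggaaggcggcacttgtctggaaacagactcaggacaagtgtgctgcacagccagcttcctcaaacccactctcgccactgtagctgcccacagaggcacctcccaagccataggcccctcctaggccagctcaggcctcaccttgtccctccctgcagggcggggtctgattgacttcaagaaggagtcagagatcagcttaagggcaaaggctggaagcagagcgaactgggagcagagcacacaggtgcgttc
GIMAP6, chr7:150632336-150632635, - strand: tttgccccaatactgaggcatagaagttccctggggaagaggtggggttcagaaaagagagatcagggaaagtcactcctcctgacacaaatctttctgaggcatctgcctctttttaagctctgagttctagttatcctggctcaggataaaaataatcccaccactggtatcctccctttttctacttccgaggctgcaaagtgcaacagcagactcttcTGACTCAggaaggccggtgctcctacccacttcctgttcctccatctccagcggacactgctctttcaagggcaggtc
IL1B, chr2:112836730-112837029, - strand: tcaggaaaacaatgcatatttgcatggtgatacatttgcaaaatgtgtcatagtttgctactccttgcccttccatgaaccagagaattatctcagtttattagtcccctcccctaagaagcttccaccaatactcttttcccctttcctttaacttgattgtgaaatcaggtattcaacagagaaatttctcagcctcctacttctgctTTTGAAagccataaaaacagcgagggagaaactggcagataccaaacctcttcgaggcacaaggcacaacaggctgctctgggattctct
SERPIND1, chr22:20773863-20774162, + strand: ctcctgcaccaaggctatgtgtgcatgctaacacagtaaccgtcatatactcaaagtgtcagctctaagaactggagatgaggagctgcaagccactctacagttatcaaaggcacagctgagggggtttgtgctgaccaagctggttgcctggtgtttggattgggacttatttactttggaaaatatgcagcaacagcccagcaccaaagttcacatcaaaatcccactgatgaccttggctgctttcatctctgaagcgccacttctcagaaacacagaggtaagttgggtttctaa
GSTA1, chr6:52803767-52804066, - strand: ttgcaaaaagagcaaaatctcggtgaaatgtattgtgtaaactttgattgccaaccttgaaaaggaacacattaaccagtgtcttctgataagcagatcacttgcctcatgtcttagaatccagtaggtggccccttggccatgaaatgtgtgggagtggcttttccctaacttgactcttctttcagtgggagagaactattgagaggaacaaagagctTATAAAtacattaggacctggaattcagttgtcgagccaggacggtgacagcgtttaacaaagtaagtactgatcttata

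The GC content of these windows ran from 40.3% for the ABCG2 window with the CHR match to 78.7% for KCNK3, against a median of 58.7% over all windows. AOC1 had 57.7%, IL1B 42.3%, GSTA1 41.3%, SERPIND1 47.0% and ADRA2A 69.3%. The windows of these 9 genes thus included both AT-rich and GC-rich starts.

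The direct difference split the genes 7 to 3. AOC1, IL1B, ABCG2, P3H2, KCNK3, GIMAP6 and VWF were higher with the E2F2 pool, and SERPIND1, ADRA2A and GSTA1 were higher with the E2F1 pool, in vehicle and under R1881 alike. All 10 were called in both direct comparisons, where 30.6% of the 15185 tested genes were called in vehicle and 24.0% under R1881, and nothing is read from that count because the difference chose the genes. A called gene is one with an adjusted p under 0.05. Among the called genes higher with the E2F2 pool in vehicle that averaged log2 CPM 1 or more and whose groups did not overlap, IL1B was at rank 2 of 2045 by size at -5.87 ± 0.34 (log2 E2F1 minus E2F2, SE) and VWF at rank 28, with -2.69 ± 0.16. Under R1881 VWF was at rank 247 of 1644 with -1.35 ± 0.16, within the same limits. The list is not a strict ranking, since genes outside it stood among or above its members: AC019181.2 at rank 1 with -6.44 and LINC01297 at rank 2 with 4.18 in vehicle, and NCAPD3 at rank 2 with 2.58 and SLC1A2 at rank 6 with -4.06 under R1881. Right after the smallest member in each direction came COBLL1 at -2.67 and IGFBP3 at 2.48 in vehicle, and PWAR1 at -1.35 and GPX8 at 2.17 under R1881.

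Which pool departed from control differed from gene to gene. With the E2F2 pool, the 3 libraries lay wholly above or wholly below the 3 control libraries for all 10 genes, 7 above and 3 below, in vehicle and under R1881. Of them 10 were called in vehicle, where 27.3% of all tested genes were called, and 9 under R1881 (all but VWF), where 30.3% were. Groups that do not overlap are more common than calls: they were found for 37.3% and 49.0% of all tested genes. With the E2F1 pool in vehicle, 3 genes lay wholly above control, 6 wholly below and ADRA2A overlapped it. All but ABCG2, GIMAP6 and ADRA2A, 7 in number, were called, against 5.28% of all tested genes, and 14.9% of all had groups that did not overlap. With the E2F1 pool under R1881, SERPIND1, ADRA2A and GSTA1 lay above, ABCG2, P3H2 and VWF below, and the other 4 overlapped control. These 6 without ABCG2, 5 in number, were called, against 9.34% of all tested genes, and 32.4% of all had groups that did not overlap. Nothing is read from these counts, because both pools entered the difference that chose the genes. The pool comparisons share their control libraries, and both share libraries with the difference that chose the genes, so each is described without a p-value. In RNA from whole cultures, a change in the share of cells with a transcript and a change in RNA per cell cannot be told apart. Gene positions below are those of GENCODE 29 on GRCh38. When replicate numbers entered as a block, calls over the whole table were 6873 in place of 4145 and 6919 in place of 4601 for the E2F2 pool (vehicle, then R1881), and 1934 in place of 802 and 3022 in place of 1418 for the E2F1 pool. In the same fit 5848 in place of 3648 genes were called between the E2F pools under R1881.

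**Figure D1:**
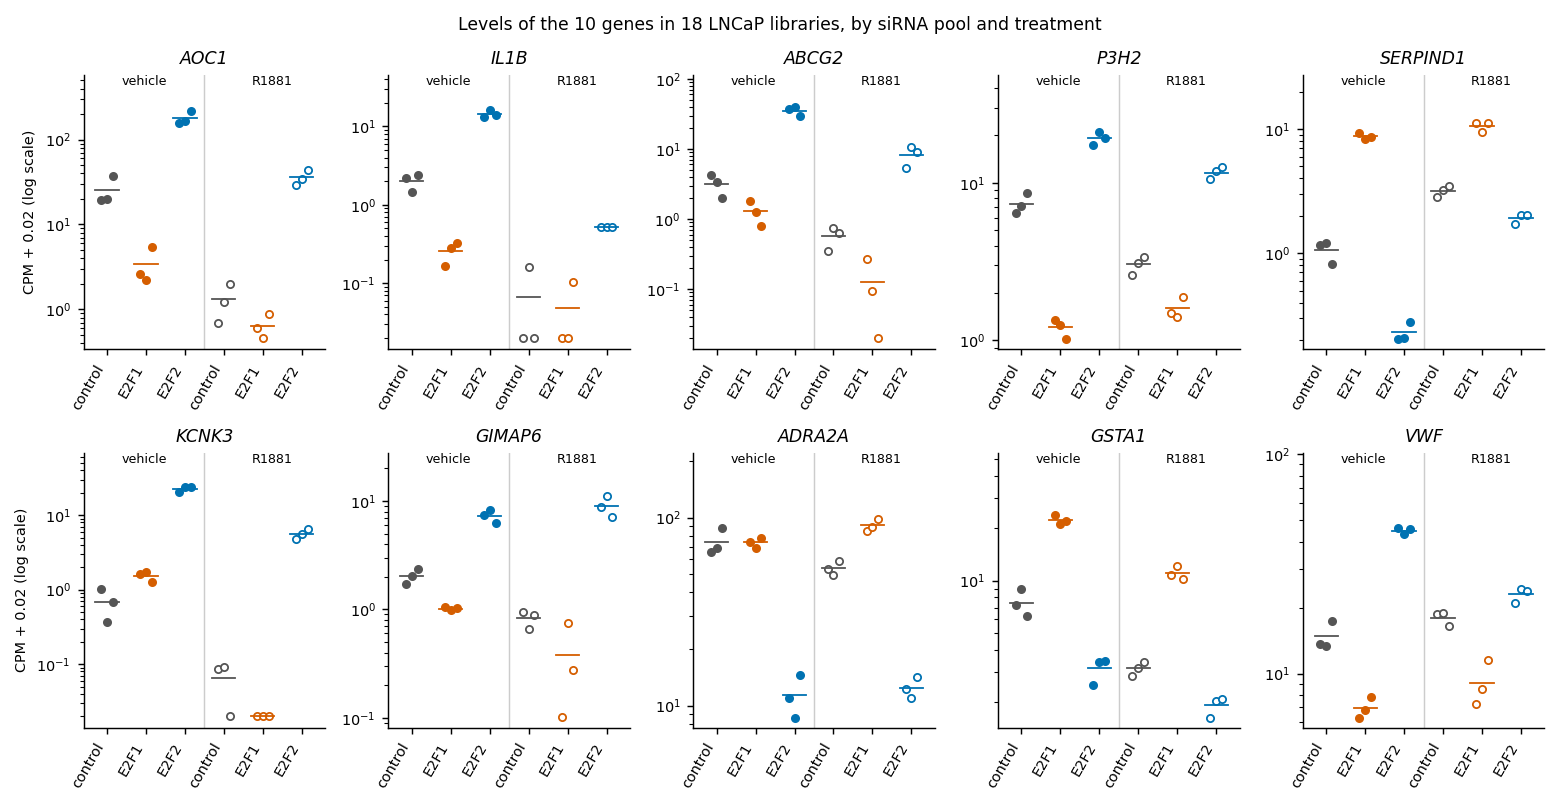
CPM plus 0.02 on a log scale for each of the 10 genes in each of the 18 libraries, by siRNA pool, with vehicle on the left (filled) and R1881 on the right (open) and a line at each group mean. The E2F2 libraries (blue) lie above control in 7 panels and below it in those of SERPIND1, ADRA2A and GSTA1, while the E2F1 libraries (orange) overlap control for ADRA2A in vehicle, where the means are 73.9 and 74.1 CPM.

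IL1B (ENSG00000125538.11, chr2:112829751-112836903, - strand) encodes interleukin-1 beta, a secreted cytokine that starts inflammatory signalling. In vehicle its level was 2.15, 1.45 and 2.40 CPM with control siRNA, 0.146, 0.265 and 0.308 CPM with the E2F1 pool, and 13.0, 16.4 and 13.8 CPM with the E2F2 pool. The 3 groups did not overlap, and both pools departed from control, E2F1 downward by 8.13-fold (log2 -3.02 ± 0.41) and E2F2 upward by 7.17-fold (2.84 ± 0.25). Under R1881 the gene was close to its floor: 2 counts in all with control siRNA, 1 with the E2F1 pool and 18 with the E2F2 pool, 6 in each library. The E2F2 to control ratio was then 10.2 (95% counting interval 2.44 to 90.6), no fold is given for E2F1 against control, and both control counts lay in replicate 2. Intervals and floors here cover counting error only. Of 10 myeloid markers, FCGR3A and TYROBP were at 0 in every group, and none passed the filter on low counts. Their summed level in vehicle was 0.346 to 0.460 CPM with control, 0 to 0.462 CPM with E2F1 and 0.861 to 2.03 CPM with E2F2, where AIF1 stood at 0.764 against 0.0512 CPM in control. Under R1881 the sums were 0.401 to 0.692, 0.255 to 0.739 and 0.338 to 1.83 CPM, and the part of such markers in the IL1B values was not tested.

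ADRA2A (ENSG00000150594.6, chr10:111077163-111080907, + strand), a Gi-coupled adrenergic receptor, had the highest CPM per length of the 10 in control cells and departed from control mainly with the E2F2 pool. In vehicle it stood at 65.9, 68.6 and 87.7 CPM with control siRNA, 74.5, 69.0 and 78.1 CPM with the E2F1 pool, and 10.9, 8.59 and 14.6 CPM with the E2F2 pool. The E2F1 libraries lay inside the control range, and the E2F2 libraries were 6.49-fold below it (-2.70 ± 0.17). Under R1881 the levels were 53.1, 49.5 and 58.7 CPM with control, 85.3, 89.4 and 97.8 CPM with E2F1, and 12.2, 10.9 and 14.1 CPM with E2F2. Here both pools stood apart from control, E2F1 1.69-fold above (0.76 ± 0.16) and E2F2 4.34-fold below (-2.12 ± 0.17).

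ABCG2 (ENSG00000118777.10, chr4:88090264-88231322, - strand) encodes an efflux pump that carries drugs and urate out of cells. With the E2F2 pool its libraries lay above those of every other group under the same treatment: 36.9, 39.5 and 29.5 CPM in vehicle, against 4.22, 3.32 and 2.00 CPM with control and 1.76, 1.24 and 0.769 CPM with the E2F1 pool. Under R1881 the E2F2 libraries held 5.32, 10.5 and 8.99 CPM and the control libraries 0.334, 0.714 and 0.606 CPM. The E2F1 libraries under R1881 held 4 counts in all, 3, 1 and 0. The departure from control was 11.1-fold in vehicle (3.48 ± 0.31) and 15.0-fold under R1881 (3.90 ± 0.41) for E2F2, and downward by 2.49-fold (-1.32 ± 0.38) and 4.77-fold (-2.25 ± 0.83) for E2F1. Without E2F1 replicate 1 under R1881 the last value was -3.49.

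KCNK3 (ENSG00000171303.6, chr2:26692690-26733420, + strand) encodes the TASK-1 channel, a potassium leak channel sensitive to acid, and had the lowest CPM per length of the 10 in control cells. Its libraries held 13, 5 and 10 counts with control siRNA in vehicle, 22, 19 and 16 with the E2F1 pool, and 221, 249 and 279 with the E2F2 pool. In CPM these were means of 0.670 ± 0.326, 1.51 ± 0.242 and 22.7 ± 1.94 (SD, n = 3). In vehicle both pools were therefore above control, by 33.7-fold for E2F2 (5.08 ± 0.26) and by 2.25-fold for E2F1 (1.17 ± 0.31). Under R1881 the counts were 2 in all with control, 0 with E2F1 and 201 with E2F2. The E2F2 to control count ratio was 114 (95% counting interval 31.1 to 946), and the E2F1 libraries were at least 70.4-fold lower than the E2F2 libraries, taking a floor of 3 counts over the group.

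AOC1 (ENSG00000002726.20, chr7:150824627-150861504, + strand) encodes diamine oxidase, a secreted enzyme that breaks down histamine and putrescine, and spanned the widest range of the abundant members. In vehicle it stood at 19.6, 20.0 and 37.2 CPM with control siRNA, 2.56, 2.21 and 5.46 CPM with the E2F1 pool, and 159, 165 and 215 CPM with the E2F2 pool. The groups did not overlap, with E2F1 7.45-fold below control (-2.90 ± 0.35) and E2F2 7.01-fold above (2.81 ± 0.32). Under R1881 the control libraries held 0.668, 1.21 and 1.99 CPM, the E2F1 libraries 0.575, 0.438 and 0.851 CPM and the E2F2 libraries 29.2, 34.0 and 44.4 CPM. The E2F2 pool was then 28.5-fold above control (4.83 ± 0.40), and the E2F1 libraries overlapped control (-1.02 ± 0.58) but were lower within each of the 3 replicate numbers. In each of the 6 groups replicate 3 was the highest library.

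P3H2 (ENSG00000090530.9, chr3:189956728-190122437, - strand) encodes a prolyl hydroxylase that modifies collagen chains in the endoplasmic reticulum. Its vehicle levels were 6.45, 7.06 and 8.61 CPM with control, 1.32, 1.24 and 1.00 CPM with E2F1 and 17.4, 20.9 and 19.2 CPM with E2F2. Both pools departed from control in opposite directions, E2F1 by 6.18-fold down (-2.63 ± 0.18) and E2F2 by 2.60-fold up (1.38 ± 0.14). Under R1881 the means were 3.02 ± 0.388 CPM with control, 1.58 ± 0.258 CPM with E2F1 and 11.6 ± 1.09 CPM with E2F2 (SD, n = 3), again without overlap. There the E2F1 departure was 1.90-fold down (-0.93 ± 0.19) and the E2F2 departure 3.87-fold up (1.95 ± 0.16). Of 9 fibroblast markers, THY1 was at 0 in every group and COL1A1 made up 79.6% of their summed level. In vehicle the sum was 21.3 to 40.1 CPM with control, 19.1 to 21.4 CPM with E2F1 and 35.0 to 45.1 CPM with E2F2, and under R1881 14.6 to 17.9, 13.1 to 14.0 and 22.1 to 28.4 CPM. The part of such markers in the P3H2 values was not tested.

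GSTA1 (ENSG00000243955.5, chr6:52791664-52803910, - strand), which joins glutathione to electrophiles, went the other way. It stood at 7.21, 8.92 and 6.21 CPM with control siRNA in vehicle, 23.7, 21.0 and 21.9 CPM with the E2F1 pool, and 2.5, 3.40 and 3.45 CPM with the E2F2 pool. Under R1881 the values were 2.80, 3.14 and 3.37 CPM with control, 10.8, 12.1 and 10.2 CPM with E2F1, and 1.61, 2.01 and 2.08 CPM with E2F2. The E2F1 pool was 2.97-fold (1.57 ± 0.15) and 3.57-fold (1.83 ± 0.16) above control, vehicle then R1881, and the E2F2 pool 2.39-fold (-1.25 ± 0.17) and 1.63-fold (-0.70 ± 0.19) below. Its near-identical neighbour GSTA2, 28.1 kb away, rose with the E2F1 pool too, from 0.527 to 2.86 CPM in vehicle (adjusted p = 0.00231, edgeR) and from 0.541 to 2.12 CPM under R1881 (adjusted p = 0.0096). With the E2F2 pool GSTA2 did not fall as GSTA1 did: it stood at 0.606 CPM in vehicle, overlapping control, and at 1.12 CPM under R1881, above control. Reads may be divided between these copies in a way the sources used here do not state, so the values of both genes are uncertain.

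SERPIND1 (ENSG00000099937.10, chr22:20773879-20787720, + strand) encodes heparin cofactor II, an inhibitor of thrombin. With the E2F1 pool it stood at 9.23, 8.31 and 8.62 CPM in vehicle and 11.2, 9.35 and 11.2 CPM under R1881, the highest levels of any group. Control libraries held 1.15, 1.18 and 0.801 CPM in vehicle and 2.80, 3.21 and 3.46 CPM under R1881, and E2F2 libraries 0.185, 0.189 and 0.258 CPM and 1.69, 2.01 and 2.00 CPM. No 2 groups overlapped within a treatment. The E2F1 pool was 8.33-fold above control in vehicle (3.06 ± 0.16) and 3.36-fold under R1881 (1.75 ± 0.14), and the E2F2 pool 4.73-fold (-2.24 ± 0.29) and 1.65-fold (-0.73 ± 0.16) below, the former on 7 counts over the E2F2 group. The gene lies inside PI4KA on the opposite strand and shares 0 exonic bases with it.

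VWF (ENSG00000110799.13, chr12:5948874-6124770, - strand), the clotting protein that tethers platelets and is classically made by endothelium and megakaryocytes, stood at 13.6, 13.3 and 17.4 CPM with control in vehicle, 6.23, 6.81 and 7.77 CPM with E2F1 and 46.0, 43.1 and 45.6 CPM with E2F2. Under R1881 the values were 18.6, 18.8 and 16.4 CPM with control, 7.22, 8.47 and 11.5 CPM with E2F1 and 21.0, 24.4 and 23.9 CPM with E2F2. E2F1 was 2.13-fold (-1.09 ± 0.16) and 1.98-fold (-0.99 ± 0.16) below control, vehicle then R1881. E2F2 was 3.04-fold above control in vehicle (1.6 ± 0.15) and 1.29-fold above under R1881 (0.36 ± 0.15), the smallest E2F2 departure of the 10. Of 17 other endothelial markers, TIE1 and SOX17 were at 0 in every group, and EGFL7 made up 93.0% of their summed level. In vehicle the sum was 29.2 to 58.8 CPM with control, 21.0 to 42.7 CPM with E2F1 and 38.2 to 53.0 CPM with E2F2, all overlapping. Under R1881 it was 20.6 to 29.7 CPM with control, 19.1 to 23.9 CPM with E2F1 and 34.5 to 41.5 CPM with E2F2, which lay above the others. EMCN, an endothelial sialomucin and 3.03% of the sum, was the 1 marker called of the 3 tested. It was higher with the E2F2 pool at 2.34 against 0.752 CPM in vehicle (adjusted p = 0.00336, edgeR) and at 1.56 against 0.320 CPM under R1881 (adjusted p = 0.00107). In vehicle, PECAM1, ROBO4, ENG and MMRN1 were detected with control and at 0 with E2F2, and TEK the reverse. Under R1881, CDH5 and SOX18 were detected with control and at 0 with E2F2, and KDR, ENG and MMRN1 the reverse. The part of such markers in the VWF values was not tested. The pseudogene VWFP1 held 0 to 4 counts per library.

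GIMAP6 (ENSG00000133561.15, chr7:150625375-150632648, - strand), a GTPase best known from lymphocytes, had its highest level under R1881 with the E2F2 pool, where it overlapped the vehicle level of that pool. In vehicle it stood at 1.69, 2.01 and 2.34 CPM with control, 1.03, 0.973 and 1.00 CPM with E2F1 and 7.40, 8.21 and 6.2 CPM with E2F2. Under R1881 control libraries held 0.935, 0.643 and 0.865 CPM, E2F1 libraries 0.0821, 0.730 and 0.255 CPM and E2F2 libraries 8.71, 11.0 and 7.16 CPM. E2F2 was 3.59-fold (1.84 ± 0.27) and 10.9-fold (3.45 ± 0.30) above control, and the E2F1 libraries were 2.01-fold below it in vehicle (-1.0 ± 0.33) and overlapped it under R1881 (-1.12 ± 0.46). Without E2F1 replicate 2 under R1881 that last value was -2.22. Lymphoid markers were near their floor in every group, with a summed level of 0.277 to 1.56 CPM over 14 genes, and CD3E, CD3G, CD2 and MS4A1 were at 0 in every group.

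**Figure D2:**
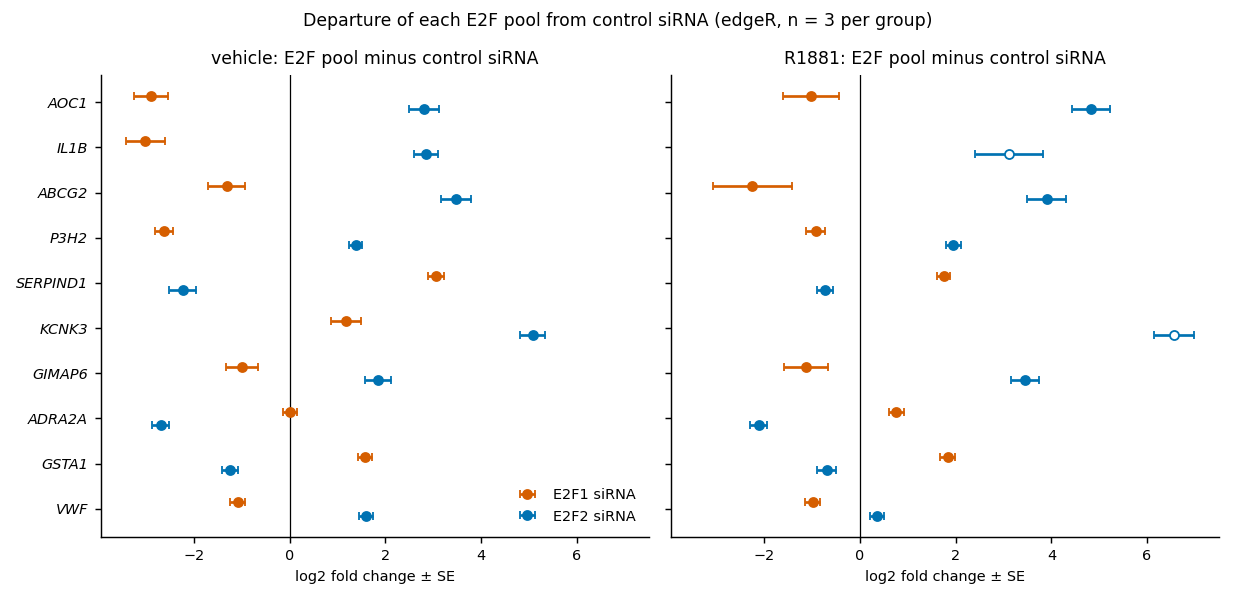
Log2 fold change ± SE of each E2F pool against control siRNA for the 10 genes, in vehicle (left) and under R1881 (right), from 3 libraries per group, with open points where a group held 1 to 3 counts and no point where both groups held 3 or fewer. KCNK3 has both points to the right of 0 in vehicle (1.17 and 5.08), and ADRA2A has its E2F1 point at 0 in vehicle and at 0.76 under R1881.

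Per kilobase of exon, the control vehicle levels ran from 0.108 ± 0.0524 CPM per kb for KCNK3 to 19.8 ± 3.17 for ADRA2A (SD, n = 3). The median was 4.44 over 15122 tested genes with a length. This scale allows for length but not for how well exome capture recovered each gene, so comparisons between genes are rough. GSTA1 (7.31) and AOC1 (6.69) also lay above the median, and VWF (1.42), P3H2 (1.31), IL1B (0.646), ABCG2 (0.631), GIMAP6 (0.514) and SERPIND1 (0.408) below it. With the E2F2 pool in vehicle, AOC1 reached 47.0 ± 8.09 CPM per kb, the highest level of any of the 10 genes in any group. IL1B, ABCG2 and KCNK3 reached 4.66, 7.00 and 3.64 CPM per kb in that group, from under 1 in control cells.

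In control siRNA cells, whose libraries took no part in the choice, R1881 lowered 8 of the 10 genes and raised 1, against 27.0% of all tested genes called (6392 in place of 4105 with the replicate block). KCNK3 is 1 of the 8 and is only described, for the reason given below, so it is not to be set against that share. The earlier results of these data were known when the genes were chosen. AOC1 fell 20.3-fold (-4.35 ± 0.40, adjusted p = 7.26e-07), ABCG2 5.72-fold (-2.52 ± 0.44, adjusted p = 4.44e-04), P3H2 2.45-fold (-1.29 ± 0.16, adjusted p = 1.40e-05), GIMAP6 2.46-fold (-1.30 ± 0.34, adjusted p = 0.00868) and GSTA1 2.40-fold (-1.26 ± 0.16, adjusted p = 2.42e-05). IL1B fell from 85 to 2 counts, a ratio of 40.6 (95% counting interval 10.9 to 340.0, adjusted p = 3.00e-06), and KCNK3 from 28 to 2, a ratio of 13.4 (3.37 to 116). KCNK3 held 13, 5 and 10 counts in control vehicle and 1, 1 and 0 in control R1881. It passed the filter on low counts only through its E2F libraries, which took part in the choice, so no p-value is given for it. SERPIND1 rose 3.01-fold (1.59 ± 0.18, adjusted p = 5.04e-06). For these 8 genes all 3 R1881 libraries lay on 1 side of all 3 vehicle libraries, as they did for 35.1% of all tested genes. ADRA2A fell 1.38-fold (-0.46 ± 0.15, adjusted p = 0.036) without overlap, and its call was lost without control R1881 replicate 1 (adjusted p = 0.0985) or 2 (0.134), and without control vehicle replicate 3 (0.11). VWF did not pass (0.28 ± 0.15, adjusted p = 0.19), but was called without the replicate 3 libraries (0.47, adjusted p = 7.27e-04) and without control vehicle replicate 3 alone (0.42, adjusted p = 0.0478).

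The same treatment with the E2F pools is described without a test. AOC1 was lower under R1881 by 5.52-fold with the E2F1 pool and 5.01-fold with the E2F2 pool, and ABCG2 by 10.9-fold and 4.25-fold. IL1B was 28.1-fold lower with the E2F2 pool, and KCNK3 4.03-fold lower with E2F2 and at least 18.8-fold lower with E2F1, from 57 counts to 0. P3H2 was 1.65-fold lower with E2F2 (-0.72 ± 0.14) but 1.32-fold higher with E2F1 (0.40 ± 0.21). SERPIND1 was 8.61-fold higher with E2F2 (3.11 ± 0.27) and 1.21-fold higher with E2F1 (0.28 ± 0.13), where its vehicle level was already high. VWF was 1.94-fold lower with E2F2 (-0.96 ± 0.15), and its E2F1 libraries overlapped (0.38 ± 0.16) but were higher within each of the 3 replicate numbers. GSTA1 was lower by 2.00-fold with E2F1 and 1.64-fold with E2F2. GIMAP6 and ADRA2A overlapped between treatments with the E2F2 pool (0.30 ± 0.24 and 0.12 ± 0.17), GIMAP6 being higher within each of the 3 numbers.

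**Figure D3:**
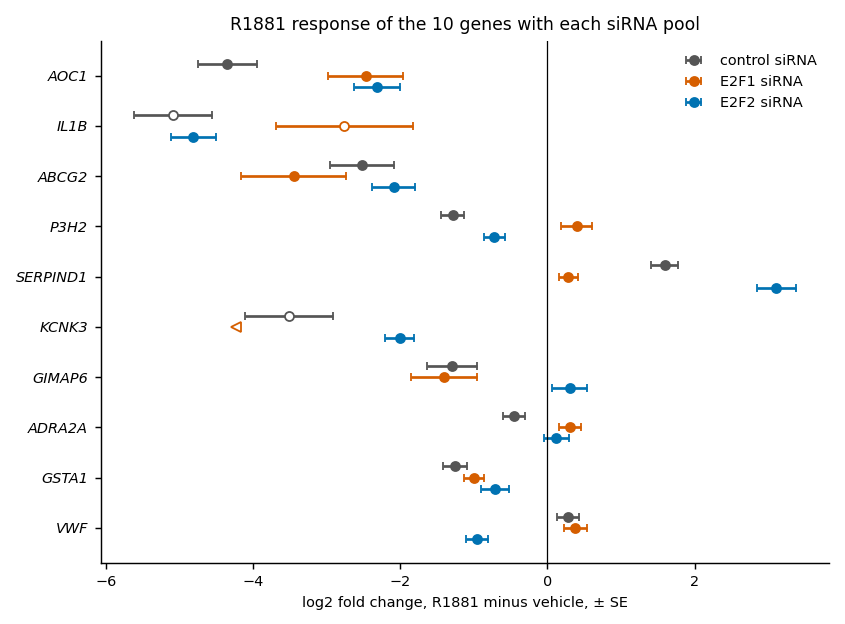
Log2 fold change ± SE of R1881 against vehicle for the 10 genes with each siRNA pool (n = 3 per group), with open points where a group held 1 to 3 counts and an arrowhead for KCNK3 with the E2F1 pool at its lower bound of 18.8-fold. With control siRNA, 8 genes lie to the left of 0 and SERPIND1 and VWF to the right, at 1.59 and 0.28.

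The order of the 6 groups was nearly the same for AOC1, ABCG2 and KCNK3: E2F2 vehicle, then E2F2 R1881, with the R1881 groups of control and E2F1 at the bottom. For AOC1 the 2 groups below the first, E2F2 R1881 (35.9 CPM) and control vehicle (25.6 CPM), overlapped, as did the bottom pair. For IL1B, control vehicle (2.00 CPM) stood above E2F2 R1881 (0.503 CPM). For ADRA2A the first 3 groups, E2F1 R1881, control vehicle and E2F1 vehicle, overlapped as neighbours, and so did the E2F2 groups at the bottom. For GSTA1, control R1881 and E2F2 vehicle had the same mean of 3.11 CPM. Over 18 libraries, log2 CPM of the 7 genes higher with E2F2 correlated with each other at r = 0.66 to 0.95 in 21 pairs, and with the other 3 at r = -0.93 to -0.31. These r follow from the shared groups and the choice of genes, and are a description.

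Of the 12713 genes compared, those whose log2 CPM followed a member most closely over the 18 libraries were LNX2 for IL1B (r = 0.985), AHNAK2 for AOC1 (0.984), RPL15 for ADRA2A (0.984), RCAN3 for ABCG2 (0.976), LAMB3 for GIMAP6 (0.975), CTDSPL for P3H2 (0.974), MAB21L3 for KCNK3 (0.974), ACPP for GSTA1 (0.972), BTN3A3 for SERPIND1 (0.970) and RP1-276N6.2 for VWF (0.944). RPL15, a protein of the large ribosomal subunit, stood at 1270.0 ± 43.9 CPM with control and 732 ± 35.3 CPM with E2F2 in vehicle. ACPP, prostatic acid phosphatase, stood at 210.0 ± 13.1 CPM with control, 295 ± 17.6 CPM with E2F1 and 121 ± 1.19 CPM with E2F2 in vehicle. AHNAK2 followed AOC1 with a narrower range, 37.5 ± 4.90, 20.6 ± 0.995 and 83.6 ± 2.37 CPM in the same order.

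Around the members, 56 other tested genes lay within 250 kb, and 18 of them (32.1%) were called between the E2F2 pool and control in vehicle, 19 (33.9%) under R1881, near the 27.3% and 30.3% over all genes. With the E2F1 pool 8 (14.3%) were called in vehicle and 9 (16.1%) under R1881, above the 5.28% and 9.34% over all genes. In vehicle these were 5 around GSTA1, GSTA2 among them, 2 around IL1B and 1 around VWF. Under R1881 they were 4 around IL1B, 2 around GSTA1, 2 around KCNK3 and 1 around SERPIND1. Between the E2F pools 24 (42.9%) and 19 (33.9%) were called, against 30.6% and 24.0%. These excesses were not tested. Some neighbours moved a long way. NOS3, endothelial nitric oxide synthase, lies 129 kb from AOC1 and rose with the E2F2 pool from 9.83 to 37.9 CPM in vehicle (1.94 ± 0.23, adjusted p = 1.10e-05, edgeR) and from 5.04 to 32.6 CPM under R1881 (2.70 ± 0.24, adjusted p = 6.60e-07). KCNH2, a potassium channel gene between AOC1 and NOS3, rose with E2F2 under R1881 (1.35 ± 0.32, adjusted p = 0.00392) and was at 0.71 ± 0.31 in vehicle (adjusted p = 0.099). GIMAP6 itself lies 192 kb from AOC1, and GIMAP2, which lies between them, was at 0.33 ± 0.16 in vehicle (adjusted p = 0.143) and rose by 0.50 ± 0.16 under R1881 (adjusted p = 0.0261).

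Beside IL1B, the receptor antagonist gene IL36RN, 222 kb away, rose with E2F2 (1.39 ± 0.12, adjusted p = 7.98e-07 in vehicle and 2.16 ± 0.14, adjusted p = 2.69e-08 under R1881) and fell with E2F1 (-0.95 ± 0.13, adjusted p = 3.45e-04 and -1.29 ± 0.16, adjusted p = 1.00e-04). IL1F10, another member of the cytokine family, fell with E2F1 in vehicle (-2.21 ± 0.45, adjusted p = 0.0081). CKAP2L, a mitotic spindle gene in the same window, fell with E2F2 in vehicle (-1.32 ± 0.20, adjusted p = 1.34e-04).

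**Figure D4:**
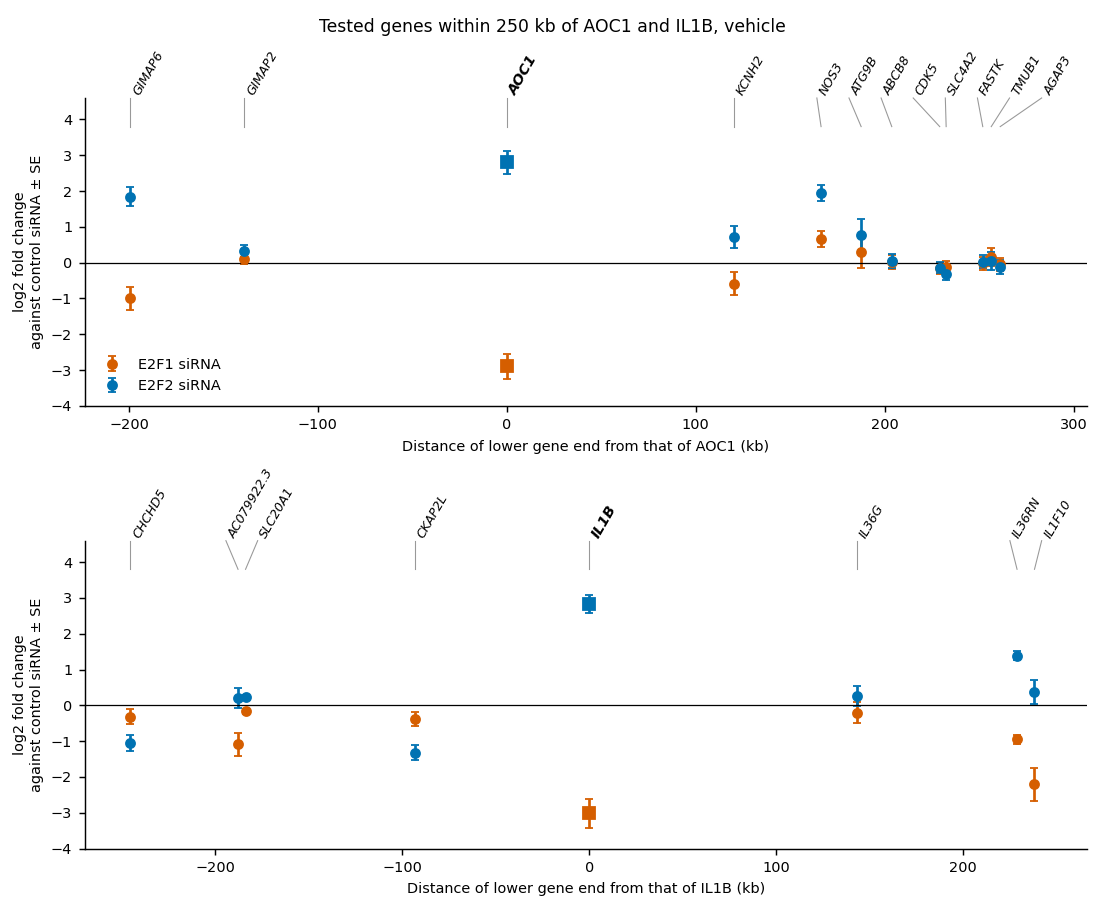
Log2 fold change ± SE against control siRNA in vehicle for AOC1 and IL1B (squares) and the tested genes within 250 kb of each (circles), by the distance in kb of each gene's lower end from that of AOC1 or IL1B, with n = 3 per group. With the E2F2 pool (blue) NOS3 lies at 1.94 and IL36RN at 1.39, while several genes right of NOS3 lie near 0.

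Pathway lists around the members were counted by the edgeR calls against control siRNA and describe these libraries only. For the whole table the called shares were 27.3% and 30.3% with the E2F2 pool (vehicle, then R1881) and 5.28% and 9.34% with the E2F1 pool. Of 25 tested targets of NRF2 and AHR, the regulators of glutathione and xenobiotic genes, 8 were higher and 2 lower with E2F2 in vehicle (median log2 0.33, against 0.02 for all genes) and 7 and 2 under R1881. With E2F1, 0 were higher and 1 lower in each treatment. CYP1A1, a xenobiotic-metabolising enzyme, rose 2.75-fold in vehicle (adjusted p = 2.67e-04) and 4.67-fold under R1881 (adjusted p = 2.21e-06) with E2F2, and TXNRD1, thioredoxin reductase, 2.06-fold in vehicle (adjusted p = 1.10e-06). Of 11 other tested glutathione transferases, 1 was higher and 0 lower with E2F2 in vehicle and 4 and 1 under R1881, and 2 were higher and 0 lower with E2F1 in each treatment. GSTA4 was higher in vehicle with E2F2 (0.92 ± 0.23, adjusted p = 0.00668) and with E2F1 (0.99 ± 0.23, adjusted p = 0.0173), whereas GSTA1 was lower with E2F2.

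Of 13 tested IL-1 family and NF-kB genes, 3 were higher and 2 lower with E2F2 in vehicle and 3 and 1 under R1881. With E2F1, 1 was higher and 2 lower in vehicle and 2 and 2 under R1881. The list did not hold IL36RN, IL1F10 and IL36G, tested neighbours of IL1B, so these counts leave them out. IL36RN and IL1F10 are described above. IL36G fell with E2F1 under R1881 (-2.12 ± 0.58, adjusted p = 0.0292, edgeR). It was not called with E2F1 in vehicle (-0.20 ± 0.29) or with E2F2 (0.26 ± 0.29 in vehicle, 0.43 ± 0.41 under R1881). IL1RN, the IL-1 receptor antagonist, rose with E2F2 under R1881 (1.35 ± 0.19, adjusted p = 6.73e-05) and fell with E2F1 in vehicle (-0.77 ± 0.18, adjusted p = 0.0205) and under R1881 (-0.93 ± 0.21, adjusted p = 0.00933), and R1881 lowered it 9.94-fold in control cells (adjusted p = 7.86e-09). TNFAIP3, an inhibitor of NF-kB signalling, rose with E2F2 in vehicle (0.86 ± 0.18, adjusted p = 0.00221) and under R1881 (1.11 ± 0.17, adjusted p = 1.34e-04). Of 10 other tested ABC transporters, 3 were higher and 2 lower with E2F2 in vehicle, with ABCC5 at 0.66 ± 0.08 (adjusted p = 2.30e-05), and 2 and 0 under R1881. With E2F1, 0 were higher and 2 lower in vehicle, the cholesterol exporters ABCG1 at -0.57 ± 0.12 (adjusted p = 0.0107) and ABCA1 at -0.65 ± 0.16 (adjusted p = 0.0276), and 0 and 0 under R1881. Of 4 other tested potassium leak channels, 1 was higher and 0 lower with E2F2 in each treatment, KCNK1 at 0.85 ± 0.22 in vehicle (adjusted p = 0.00804), and 0 and 0 with E2F1.

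Of 14 other tested clotting factors, serpins and receptors, 4 were higher and 1 lower with E2F2 in vehicle and 4 and 3 under R1881, among them F5, coagulation factor V, at 1.11 ± 0.26 (adjusted p = 0.00515) and 1.56 ± 0.19 (adjusted p = 1.27e-05). With E2F1, 0 were higher and 1 lower in vehicle, and 1 and 0 under R1881, with SERPINE2 at 0.77 ± 0.17 (adjusted p = 0.00864). Of 9 other tested amine-breakdown genes, 2 were higher and 1 lower with E2F1 in vehicle and 4 and 0 under R1881, and 0 and 1 with E2F2 in vehicle and 2 and 2 under R1881. MAOA, monoamine oxidase A, fell with E2F1 in vehicle (-0.69 ± 0.07, adjusted p = 2.87e-05). SAT1, which acetylates polyamines, rose under R1881 with E2F1 (0.81 ± 0.09, adjusted p = 2.48e-05) and with E2F2 (0.55 ± 0.09, adjusted p = 1.72e-04). AOC2, unlike AOC1, was higher with E2F1 in vehicle (0.66 ± 0.16, adjusted p = 0.0208) and under R1881 (0.55 ± 0.15, adjusted p = 0.0285). With E2F2, AOC2 was lower in vehicle (-0.54 ± 0.17, adjusted p = 0.0244) and AOC3 under R1881 (-1.02 ± 0.21, adjusted p = 0.0015). Of 16 other tested collagen-modifying genes, 5 were higher and 4 lower with E2F2 in vehicle, with P4HA2, a collagen prolyl 4-hydroxylase subunit, at 1.31 ± 0.13 (adjusted p = 2.18e-06), and 3 and 1 under R1881. With E2F1, 2 were higher and 0 lower in each treatment. P4HA2 was 1 of them, at 0.54 ± 0.13 in vehicle (adjusted p = 0.0245) and 0.55 ± 0.13 under R1881 (adjusted p = 0.0144), so it was higher with both pools. Of 14 other tested genes of adrenergic signalling, 1 was higher and 2 lower with E2F2 in vehicle, including ARRB2, an arrestin that desensitises receptors, at -0.80 ± 0.16 (adjusted p = 0.00185), and 1 and 4 under R1881. With E2F1, 1 was higher and 0 lower in vehicle, and 0 and 0 under R1881. The luminal prostate markers were all detected, with a summed level of 5750 to 11900 CPM.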

How the data were processed

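RNA from 18 LNCaP libraries (6 groups of 3, grouped by the sample labels) was measured by RNA-seq after exome capture. The authors deposited whole-number counts for each gene identifier. Tools named per the submitters' processing notes were Subread 1.6.4 (featureCounts), Picard 1.97, TopHat2 2.0.13 and CASAVA 1.8.2, with genome GRCh38. The strand setting, the handling of multi-mapping reads and the annotation release are not given in the sources used here. Positions came from GENCODE 29 (57388 of 58037 identifiers matched) and promoter windows from RefSeq (GRCh38.p14).

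Genes were kept by the edgeR filter (minimum count 10, minimum total 15), which left 15185, and libraries of 10930204 to 14819879 counts were scaled by TMM. One model with 6 group means was fitted by edgeR 4.0.16 (quasi-likelihood) in R 4.3.3, and p-values were adjusted by Benjamini-Hochberg over all 15185 genes, with calls under 0.05. The members and lists were chosen with earlier results of these data known. Members were chosen on the E2F1 against E2F2 difference, so p-values are given for them only for R1881 against vehicle with control siRNA, and there not for KCNK3. Their calls in the other comparisons are counted, and nothing is read from those counts. Named list genes were the 3 with the lowest adjusted p in a comparison, neighbours were tested genes within 250 kb, genes outside the list were the 3 next after the members, and the 3 largest non-members, by size of the direct difference among called genes averaging log2 CPM 1 or more whose groups did not overlap, and 2 genes of highest likeness were ranked per member. Likeness was the correlation of log2 CPM (prior count 2) over 18 libraries among genes averaging log2 CPM 1 or more.

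Same-numbered libraries deviated together in all comparisons (lowest r = 0.14, above the limit of 0.1). Deviations from the mean of 3 libraries cancel out, so a shift shared by the replicate 3 libraries also makes the other numbers deviate together. This check therefore cannot show that the numbers pair the samples, and the main model did not use them. Alternatives were DESeq2 1.42.0, limma-voom (limma 3.58.1), other scaling and filters, the block, leaving out replicates and fitting only the groups compared. Tested on simulated data, edgeR and limma-voom came near their nominal false share and DESeq2 exceeded it. Counts of a few reads are limited by counting error, so such members carry 95% intervals or a floor of 3 counts. Columns of no mapped sample numbered 0.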

Additional observations from a re-analysis of the deposited data

Results flagged for a closer look

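P3H2 and ADRA2A were picked out because their libraries moved in opposite directions with R1881 under different siRNA pools. For P3H2, all R1881 libraries lay below all vehicle libraries with control siRNA (log2 -1.29) and with the E2F2 pool (-0.72), and above them with the E2F1 pool (0.40). For ADRA2A, R1881 libraries lay below vehicle with control siRNA (-0.46 ± 0.15) and above with the E2F1 pool (0.30 ± 0.15). The ADRA2A call with control siRNA was lost when certain single replicates were left out. The differences between pools were not tested, because the E2F libraries took part in the choice of these genes.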

How the results depend on the processing

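No called member reversed, but the balance of higher and lower calls did in some fits. For E2F1 against control under R1881 it went from 671 higher and 747 lower to 459 and 418 without E2F1 R1881 replicate 1. With only the groups compared, it went from 2093 and 2012 to 915 and 927 for R1881 in control cells. In the same kind of fit it went from 359 and 443 to 9 and 8 for E2F1 against control in vehicle. ADRA2A with the E2F1 pool in vehicle stayed near 0 with either sign (up to 0.14 without control vehicle replicate 3), and IL1B with that pool under R1881, on 1 and 2 counts, took either sign. With the replicate number as a block (pairing), the genes called were 6392 for R1881 in control cells, 3022 and 1934 for E2F1 against control (R1881, vehicle), 6919 and 6873 for E2F2 against control, and 5848 for E2F1 against E2F2 under R1881. The block changed no call of the 10 genes for R1881 in control cells, where KCNK3 is only described. With replicates 1 and 2 only the counts were 7205, 4487, 2864, 7828, 6962, 6810 and, for E2F1 against E2F2 in vehicle, 7670. With only the groups compared they were 1842, 2131, 17 and 1793 (R1881 in control, E2F1 under R1881, E2F1 in vehicle, E2F2 in vehicle), and without the filter 903 and 462 for E2F1 against control. Leaving out 1 replicate at a time gave 3180 to 4711 for R1881 in control cells, 872 to 1075 and 445 to 1028 for E2F1 against control (R1881, vehicle), 3635 to 3945 and 2948 to 4221 for E2F2 against control, and 2662 to 2934 and 3513 to 4346 for E2F1 against E2F2, with fewer libraries. In these, the members called with R1881 in control cells numbered 8 to 9, with 7 in the fit of only the groups compared and 10 with replicates 1 and 2 only. KCNK3 was among the members counted wherever it passed the filter, and nothing is read from its part in these counts. KCNK3, with 13, 5 and 10 counts in control vehicle, did not pass the filter in the fit of only the groups compared. ADRA2A also lost its call without the filter (adjusted p = 0.0642) and with only the groups compared (0.1). The cause was not tested. Depth limits IL1B and KCNK3 under R1881.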
